A study of Mus musculus with 20 samples.

Results

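The metallothionein genes Mt1 and Mt2 were followed through the estrous cycle in the inguinal subcutaneous fat of female mice. They are 2 of the 35841 genes in the deposited table and were picked by symbol, each matching 1 row (identifiers ENSMUSG00000031765 and ENSMUSG00000031762). They had been picked because of the values that are described first, namely their level, their pattern over the stages, the ratio between them and the libraries that stood out, so these values are given with no test. The mice were 20 C57BL/6 females of 8 weeks with free access to food, 5 in each of proestrus, estrus, metestrus and diestrus, staged by vaginal smear and serum hormones, with 1 library of polyadenylated RNA per mouse and no treatment. No stage was a control group, and nothing but the stage differed between the groups by the labels. The values are FPKM, fragment counts scaled to the length of each transcript and to the mapped fragments of each library. Comparing levels between genes on this per-length basis depends on the lengths used, which are not given.

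Metallothioneins are small, cysteine-rich proteins that hold zinc and copper ions and release them to other proteins. In the mouse, Mt1 and Mt2 are made in most tissues, whereas Mt3 is best known from brain and Mt4 from stratified epithelium. Zinc induces Mt1 and Mt2 through the transcription factor Mtf1, which binds short metal response elements in their promoters, and glucocorticoids, inflammatory cytokines and oxidative stress are further known inducers.

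The genes lie side by side on chromosome 8 of GRCm38, on the plus strand. By GENCODE M21, Mt2 spans 94172664 to 94173568 and Mt1 spans 94179082 to 94180327, with 5513 bases between them. Mt3 starts 20.1 kb and Mt4 35.5 kb before the start of Mt2. The main transcript of each gene has 3 exons, and the coding part is divided over the exons of both genes in the same way, into 28, 66 and 89 bases. The coding sequences without the stop codon are shown because counts of near-identical copies can be confused. Capitals mark the bases at which the genes differ.
Mt1: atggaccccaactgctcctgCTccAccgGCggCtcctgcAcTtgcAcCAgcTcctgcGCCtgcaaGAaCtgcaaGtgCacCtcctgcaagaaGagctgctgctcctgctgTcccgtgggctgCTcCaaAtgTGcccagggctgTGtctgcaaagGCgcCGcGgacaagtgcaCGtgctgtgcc
Mt2: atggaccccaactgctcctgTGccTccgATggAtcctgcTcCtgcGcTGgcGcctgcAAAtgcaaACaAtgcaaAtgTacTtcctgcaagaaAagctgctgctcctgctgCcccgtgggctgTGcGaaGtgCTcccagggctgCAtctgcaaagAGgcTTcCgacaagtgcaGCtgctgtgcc
They differed at 38 of 183 bases (79.2% identity), and the longest stretch shared by the whole transcripts was 20 bases. How fragments were divided between the genes by the authors' tools was not tested. The annotation also places an antisense gene, Gm45774 (94170748 to 94173412, minus strand), across most of Mt2. It was listed at 0.0268 to 1.24 FPKM over the 20 libraries, and whether fragments were counted by strand is not given in the sources used here.

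The promoters are shown because the genes had like patterns over the libraries. Each window runs from 250 bases before to 50 bases after the RefSeq start (RefSeq, GRCm38.p6), which lies a little before or after the GENCODE start, and capitals mark matches to the core of the metal response element, TGCACNC or TGCGCNC on either strand.
Mt1, chr8:94178839-94179138, plus strand: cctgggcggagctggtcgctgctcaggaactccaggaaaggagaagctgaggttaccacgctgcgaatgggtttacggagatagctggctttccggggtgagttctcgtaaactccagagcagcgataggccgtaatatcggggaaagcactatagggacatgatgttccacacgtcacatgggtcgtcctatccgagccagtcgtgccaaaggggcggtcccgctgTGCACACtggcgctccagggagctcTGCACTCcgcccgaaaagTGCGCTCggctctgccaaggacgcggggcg
Mt2, chr8:94172368-94172667, plus strand: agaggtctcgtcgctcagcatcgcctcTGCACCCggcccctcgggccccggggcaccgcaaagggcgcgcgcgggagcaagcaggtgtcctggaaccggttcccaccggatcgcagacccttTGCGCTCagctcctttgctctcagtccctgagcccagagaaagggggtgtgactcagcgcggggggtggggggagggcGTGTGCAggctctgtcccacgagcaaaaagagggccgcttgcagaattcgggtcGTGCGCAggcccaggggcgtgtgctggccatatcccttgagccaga
The Mt1 window held 3 matches and the Mt2 window 4, none overlapping another. Of 27025 promoter windows of this length, 1 per gene, 25.6% held at least 1 match, 2% at least 3 and 0.503% at least 4. The windows of Mt3 and Mt4 held 1 match each, that of Mtf1 held 0, and that of Slc30a1, a zinc exporter also known to be induced through Mtf1, held 2. The letters TGACNNNGC, the core of the antioxidant response element, matched once in the Mt2 window and not in that of Mt1 (12.5% of all windows held at least 1). The letters AGAACA, a half-site of the glucocorticoid response element, were in neither window on either strand (19% of all windows held them). Such matches are a description of letters within these windows. By GENCODE M21 the coding parts start after the windows end, at 94179311 in Mt1 and 94172848 in Mt2. The bases between were not searched.

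Both genes were at their highest at metestrus and at their lowest at diestrus. The mean of Mt1 was 64.9 ± 14.3 FPKM at metestrus, 33.6 ± 18.0 at estrus, 23.7 ± 6.45 at proestrus and 18.9 ± 2.61 at diestrus (SD over 5 mice). Mt2 was at 70.6 ± 15.1 FPKM at metestrus, 48.4 ± 58.6 at estrus, 17.9 ± 4.21 at proestrus and 11.8 ± 1.87 at diestrus (SD, n = 5). The high mean and wide spread at estrus came from the library estrus-1, and without it the means there were 26.1 ± 7.47 FPKM for Mt1 and 22.2 ± 3.86 for Mt2 (SD, n = 4). In bulk tissue, more RNA per cell and more cells that hold the RNA cannot be told apart.

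The libraries of Mt1 read as follows. At metestrus it was at 76.3, 50.6, 49.5, 80.4 and 67.5 FPKM in replicates 1 to 5, and at diestrus at 17.6, 18.8, 19.9, 15.5 and 22.5. At proestrus the values were 34.5, 24.7, 19.9, 18.9 and 20.5 FPKM, and at estrus 63.6, 35.7, 20.2, 20.0 and 28.3. Each metestrus library was thus above each library of the other stages but estrus-1, which lay within the metestrus range. Proestrus, estrus and diestrus overlapped with one another.
For Mt2 the metestrus libraries were at 84.2, 57.0, 55.2, 88.1 and 68.6 FPKM, and the diestrus libraries at 12.7, 11.6, 11.1, 9.28 and 14.3. At proestrus the values were 22.3, 16.5, 14.3, 13.8 and 22.4 FPKM, and at estrus 152.9, 23.7, 17.5, 21.0 and 26.6. Estrus-1 was above all metestrus libraries here, and the other estrus libraries were below all of them. Unlike Mt1, Mt2 did not overlap between estrus and diestrus, with or without estrus-1.

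**Figure D1:**
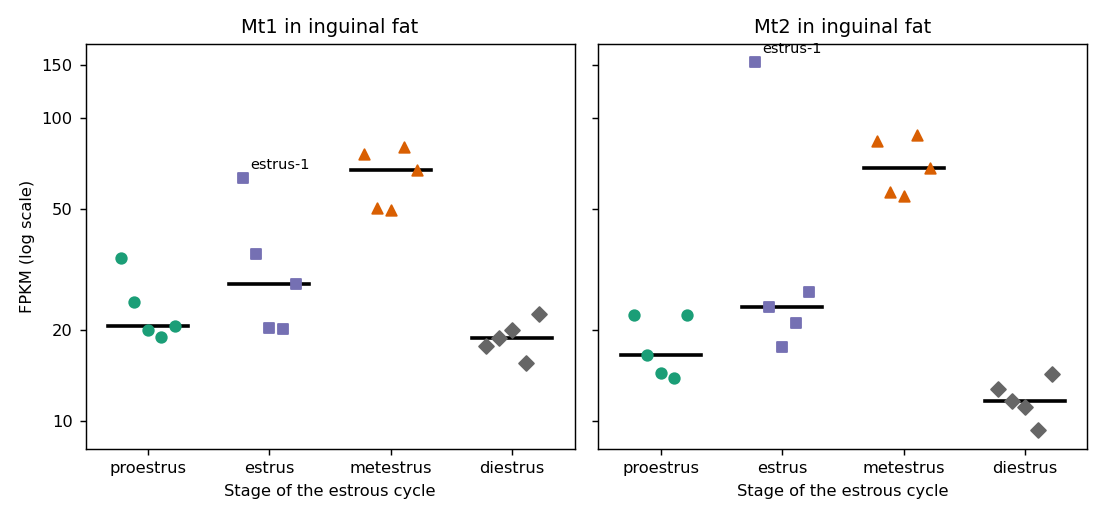
FPKM of Mt1 (left) and Mt2 (right) on a log axis, by stage. Each point is 1 mouse, in the order of the replicate numbers, and the bars are the medians of 5 mice. The metestrus points lie between 49.5 and 80.4 FPKM for Mt1 and between 55.2 and 88.1 for Mt2, and estrus-1 stands at 63.6 and 152.9 FPKM.

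From metestrus to diestrus the mean of Mt1 was 3.44 times lower and that of Mt2 6.00 times lower, with log2(FPKM + 1) differences of -1.71 and -2.47 beside a spread within the stages of 0.26 for each gene (SD). From proestrus to metestrus the means were 2.74 and 3.95 times higher, with log2 differences of 1.42 and 1.93 (SD within the stages 0.33 and 0.31). From estrus to metestrus they were 1.93 and 1.46 times higher with estrus-1 and 2.49 and 3.18 times higher without it. The stages fall in the order metestrus, estrus, proestrus, diestrus for both genes. In that order the step from proestrus to estrus was smaller than the spread with estrus-1 (log2 differences 0.39 and 0.86, SD 0.53 and 0.91). Without estrus-1 it was 0.13 for Mt1 (SD 0.37) and 0.31 for Mt2 (SD 0.28), and the libraries still overlapped for both genes. Between proestrus and diestrus the log2 difference was -0.29 for Mt1 (SD 0.28) and -0.55 for Mt2 (SD 0.27), and the libraries overlapped for both genes. Of all 13987 genes tested, 3.25% had no overlap between metestrus and diestrus, 2.51% between proestrus and metestrus, 1.67% between estrus and metestrus, 1.43% between estrus and diestrus and 0.486% between proestrus and diestrus.
Of the variance of log2(FPKM + 1), 74.8% lay between the stages for Mt1 and 70.9% for Mt2, or 85.3% and 93.7% without estrus-1. Over the 20 libraries the highest value was 5.19 times the lowest for Mt1 and 16.5 times for Mt2. The SD of log2(FPKM + 1), 0.77 and 1.14, was above that of 94.9% and 98.2% of the genes tested. By mean level, Mt2 (37.2 FPKM) ranked 1045th and Mt1 (35.3 FPKM) 1105th among these genes.

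The mean balance between the genes differed between the stages. The ratio of Mt2 to Mt1 FPKM was 1.09 ± 0.0443 at metestrus, 1.19 ± 0.696 at estrus, 0.772 ± 0.182 at proestrus and 0.625 ± 0.0602 at diestrus (SD, n = 5). Mt2 was above Mt1 in all 5 metestrus libraries and below it in all 5 diestrus libraries. At proestrus it was above Mt1 only in proestrus-5 (ratio 1.09). At estrus the ratio was 2.40 in estrus-1, 1.05 in estrus-4 and 0.665, 0.866 and 0.940 in estrus-2, estrus-3 and estrus-5, and the mean without estrus-1 was 0.88 ± 0.162 (SD, n = 4). The metestrus ratios had the smallest spread of the 4 stages, from 1.02 to 1.13.
Across libraries the genes went up and down together. Pearson's r of log2(FPKM + 1) was 0.946 and Spearman's rho 0.94 over the 20 libraries, and r was 0.932 without the 2 libraries farthest from the median of Mt1 (metestrus-4 and metestrus-1). After subtraction of the stage means r was 0.853, and 0.764 without estrus-1. The libraries share no mouse, but the values of a library share its scaling, and the correlations are given without a p because the genes were picked for these values. The slope of log2 Mt2 on log2 Mt1 was 1.40 over all libraries and 1.29 without estrus-1, so that Mt2 spanned the wider range. Within stages the slope was 1.36, or 0.67 without estrus-1, so that a slope above 1 within stages rested on that library.

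**Figure D2:**
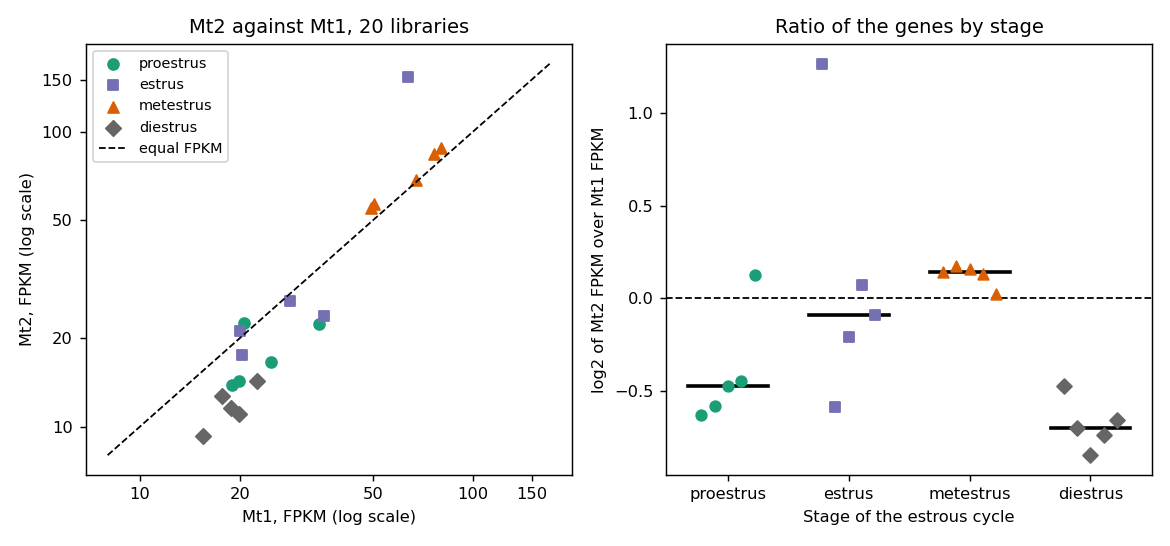
Left, FPKM of Mt2 against FPKM of Mt1 on log axes in 20 libraries, with a dashed line at equal FPKM. Right, log2 of their ratio by stage, with 1 point per mouse and a bar at the median of 5. The metestrus points lie just above equality, from 0.02 to 0.17, and the diestrus points below it, from -0.85 to -0.47.

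Estrus-1 stood apart in more than the metallothioneins. Of the 13987 genes tested, Mt2 had the 12th largest excess in this library over the mean of the other 4 estrus libraries (2.74 on the log2 scale), and Mt1 the 145th (1.30). Of the marker lists, the 4 endothelial genes summed to 138 FPKM in estrus-1, the highest of the 20 libraries, where the range was 70.2 to 138 at estrus and 65.1 to 117 at metestrus. The 9 lymphocyte markers summed to 1.62 FPKM, the lowest of the 20, and the 4 brown adipocyte markers to 26.8 FPKM, also the lowest, with 2 of these 4 at 0. The 7 adipocyte markers, which include Adipoq and Plin1, summed to 4913 FPKM, the sixth highest, against 3191 to 5507 at estrus. The part of these differences in the metallothionein values was not tested.
The marker lists did not set metestrus apart as the metallothioneins did. At metestrus and diestrus the sums were 3256 to 5662 and 3027 to 4993 FPKM for the adipocyte markers, 52.7 to 88.7 and 36.1 to 88.1 for 4 macrophage markers, 1.87 to 267.5 and 4.04 to 241.8 for the lymphocyte markers and 275.1 to 825.7 and 239.8 to 1149 for 5 red blood cell markers, so that the ranges overlapped in each list. Metestrus-3 held the most muscle RNA (7 markers, 5559 FPKM, against 6.92 as the lowest at metestrus) and the least RNA of the 6 mammary epithelial markers (140.7 FPKM), and had the lowest Mt1 and Mt2 values of its stage. Metestrus-2, with muscle markers near the low end, was within 2 FPKM of it for both genes. The part of muscle RNA in these values was not tested.

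Of the other metallothioneins, Mt3 was low in all libraries. It did not reach the level needed for a test, and was listed at 0 to 1.05 FPKM, with 0, 0.316, 1.05, 0.323 and 0.367 FPKM at metestrus and at most 0.268 in the other libraries. Its highest value was in metestrus-3, the library with the most muscle RNA. No FPKM of Mt4 was analysed here.

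To set the pair beside its known regulators and partners, 90 genes in 8 lists were fitted together with all other genes that had at least 1 FPKM in at least 5 libraries. Of these, 73 entered the fit, which was made with limma on log2(FPKM + 1), with p-values adjusted over all 13987 genes by the Benjamini-Hochberg method. Among the 4 stages 8 of the 73 differed by the F test, against 0.736% of all genes, and 7 of the 8 were in the list of glucocorticoid-responsive genes. The lists were drawn up with earlier results of these data known, so that the counts are descriptions of the lists.

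Of the tested genes that sense or move zinc, none passed a test between stages in the fit described, and 1, Slc39a7, did so under other settings. Over all genes tested, 0.736% passed the F test and at most 1.24% a pair of stages. A count of 0 in lists this short is near these shares. Mtf1, the zinc-sensing factor, had means of 2.34 ± 0.298, 2.13 ± 0.209, 2.38 ± 0.444 and 2.47 ± 0.267 FPKM from proestrus through to diestrus (SD, n = 5, limma F test adjusted p = 0.923). Slc30a1, which carries zinc out of the cell, was at 6.81 ± 1.15, 7.37 ± 0.412, 6.86 ± 0.814 and 6.84 ± 0.870 FPKM in the same order. Its log2 difference from metestrus to diestrus was -0.003, with a standard error of 0.11 (adjusted p = 0.998), beside -1.71 and -2.47 for Mt1 and Mt2. Of 10 zinc exporters 6 were tested, and 0 passed the F test or any pair of stages in limma (0 at an unadjusted p under 0.05 in each). Slc30a7, Slc30a6 and Slc30a4, exporters that load zinc into vesicles or the Golgi, had the smallest F test p of these (adjusted p = 0.77, 0.892 and 0.978).
Of 14 zinc importers 10 were tested and 0 passed the F test or a pair test in limma. The shares of all genes were 0.736% and at most 1.24%. An unadjusted F test p under 0.05 was found for 1 importer. This was Slc39a7, which releases zinc from the endoplasmic reticulum and Golgi into the cytosol, and its mean was lowest at metestrus. The stage means were 16.6 ± 3.03, 14.9 ± 3.16, 11.2 ± 3.66 and 18.6 ± 2.18 FPKM in cycle order (SD, n = 5), with a log2 difference of 0.74 from metestrus to diestrus (standard error 0.19, limma adjusted p = 0.0679). This passed at 0.0193 with array weights in limma, which give outlying libraries less weight, and at 0.0421 with libraries scaled to an equal total without mitochondrial genes. Slc39a3 and Slc39a10, importers of the cell surface, followed with F test adjusted p = 0.729 and 0.77. Slc39a14, a zinc importer known in liver as a target of interleukin-6, was at 1.81, 1.89, 1.97 and 1.60 FPKM on average from proestrus to diestrus (limma F test adjusted p = 0.955).

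Of 10 genes of copper handling 9 were tested and 0 passed in any comparison by limma, against at most 1.24% of all genes. An unadjusted F test p under 0.05 was found for 1 of them. This was Atox1, a chaperone that hands copper to the export pumps, at 59.5 ± 8.99 FPKM at metestrus and 78.7 ± 9.73 at diestrus (SD, n = 5, log2 difference 0.40, standard error 0.13, limma adjusted p = 0.162, and 0.0276 with array weights). The copper oxidase Cp and the copper chaperone of mitochondria Cox17 had F test adjusted p = 0.652 and 0.765.
Of 14 genes of the antioxidant response 13 were tested and 0 passed in any comparison by limma, against at most 1.24% of all genes. An unadjusted F test p under 0.05 was found for 2 of them. Hmox1, the inducible heme oxygenase, was at 12.5, 15.4, 16.0 and 13.7 FPKM on average from proestrus to diestrus, with a log2 difference of -0.23 from metestrus to diestrus (standard error 0.20, limma adjusted p = 0.781). The mitochondrial superoxide dismutase Sod2, the thioredoxin reductase Txnrd1 and catalase, Cat, had the smallest F test p of the list (adjusted p = 0.386, 0.427 and 0.495). With array weights 4 of the 13 passed from metestrus to diestrus, where Sod2 and Txnrd1 were higher at diestrus (log2 differences 0.37 and 0.29, limma adjusted p = 0.0272 and 0.0175) and Cat and Nfe2l2, the gene of Nrf2, lower (-0.68 and -0.32, adjusted p = 0.0147 and 0.0421). The median log2 difference from metestrus to diestrus was 0.09 for the antioxidant genes, -0.04 for copper handling, 0.10 for the zinc importers and 0.02 for the exporters, beside -0.002 over all genes tested.

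The glucocorticoid-responsive genes were the list with the most changes, and all of them were in the direction in which Mt1 and Mt2 differed. From proestrus to metestrus 9 of 16 rose and 0 fell (0.593% of all genes rose and 0.286% fell), with a median log2 change of 1.06 against -0.01 over all genes. From estrus to metestrus 5 of 16 rose and 0 fell (0.172% of all genes rose, and 0.222% changed in either direction). From metestrus to diestrus 8 of 16 fell and 0 rose (0.836% of all genes fell), with a median of -0.98. From proestrus to estrus 0 of 16 changed by limma, with 2 at an unadjusted p under 0.05 (0.143% of all genes changed, 0.00715% upward). From proestrus to diestrus 0 of 73 listed genes changed by limma, with 1 at an unadjusted p under 0.05 (0.0143% of all genes changed, all downward). From estrus to diestrus 0 of 73 changed, with 7 at an unadjusted p under 0.05 (0% of all genes changed). These comparisons share libraries. The calls varied with the libraries, so that 9 became 3 of 73 listed genes without proestrus-3, proestrus-4, metestrus-4 or metestrus-5 and 5 without proestrus-5 or metestrus-3. Of all listed genes, the 5 called from estrus to metestrus became 3 without estrus-4 and 2 without estrus-5, metestrus-4 or metestrus-5, and the 10 called from metestrus to diestrus became 5 without metestrus-4 and 6 without diestrus-1.
Cebpd, a transcription factor of early adipocyte differentiation, is the member of this list most like Mt1. It was at 10.9, 12.9, 11.0, 17.5 and 11.5 FPKM at metestrus and at 5.26, 4.68, 6.43, 6.04 and 5.27 FPKM at diestrus. It fell by 1.06 on the log2 scale between them (standard error 0.20, limma adjusted p = 0.0127, and 0.0536 without metestrus-4). Fkbp5, which binds the glucocorticoid receptor complex, was at 28.0, 17.6, 17.6, 40.4 and 33.8 FPKM at metestrus and at 1.94 to 8.94 FPKM in the other 15 libraries. Tsc22d3, a repressor of inflammatory transcription, was at 65.0 to 83.1 FPKM at metestrus and 16.2 to 31.0 at diestrus (log2 change -1.62, standard error 0.30, limma adjusted p = 0.012). Of the others that fell from metestrus to diestrus, Ddit4 inhibits mTORC1, Pdk4 inhibits pyruvate dehydrogenase, Sgk1 is a kinase that acts on ion channels, Per1 is a clock gene and Nfkbia is the inhibitor of NF-kB. The calls of Per1 and Nfkbia (limma adjusted p = 0.0477 and 0.0373) were lost in 13 and 6 of 20 fits with a single library removed. Those that rose from proestrus to metestrus besides Fkbp5, Tsc22d3, Cebpd, Ddit4, Pdk4 and Sgk1 were Klf9, Cdkn1a and Errfi1, a transcription factor, an inhibitor of the cell cycle and a brake on the EGF receptor (log2 changes 0.96, 1.42 and 1.31). Their calls were lost in 6, 5 and 7 of the same 20 fits, and those of Sgk1, Pdk4 and Ddit4 for this comparison in 13, 12 and 4.
In estrus-1, where Mt2 was at its highest, most of these genes were not at metestrus levels. Fkbp5 was at 5.31 FPKM there, Pdk4 at 14.8 FPKM (lowest at metestrus 75.3) and Tsc22d3 at 35.9 FPKM (lowest at metestrus 65.0). Of the 16 genes, Klf9 (57.6 FPKM) lay within the range of the metestrus libraries and Per1 (14.8 FPKM) above it. Nr3c1, the glucocorticoid receptor, whose mean was lowest at metestrus, was also above it, at 36.2 FPKM. This comparison was chosen after the values were seen.

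**Figure D3:**
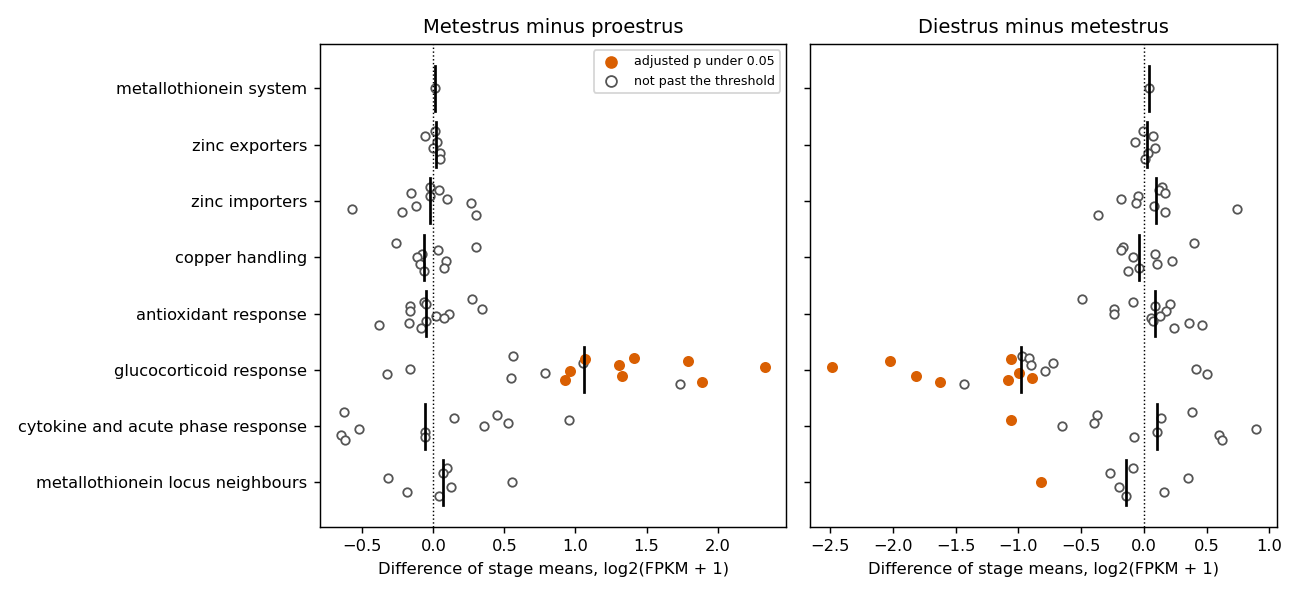
Differences of stage means of log2(FPKM + 1) for the 73 listed genes that entered the fit, from proestrus to metestrus (left) and from metestrus to diestrus (right). Each circle is 1 gene, filled where the adjusted p of limma was under 0.05, and the black bars are the medians of the lists. The filled circles lie in the glucocorticoid list, 9 at the left and 8 at the right, and at the right also in those of cytokine response and locus neighbours, 1 each.

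Of 14 genes of the cytokine and acute phase response 11 were tested. Of these 1, Il6ra, passed a test, that from metestrus to diestrus, which 1.24% of all genes passed. Il6ra, the receptor of interleukin-6, fell by 1.06 on the log2 scale from metestrus (8.25 to 14.5 FPKM) to diestrus (3.56 to 8.29 FPKM, limma adjusted p = 0.0286), and this call was lost in 7 of the 20 fits. Socs3, the feedback inhibitor that interleukin-6 signalling induces, had its lowest mean at metestrus (2.63 ± 0.994 FPKM), where the other means were 4.57 ± 0.806, 5.14 ± 1.42 and 4.40 ± 0.894 in cycle order (SD, n = 5, limma F test adjusted p = 0.156). The plasma protein Orm1 was at 101.5 FPKM on average at metestrus and 196.7 at diestrus (log2 difference 0.89, limma adjusted p = 0.12). Of the acute phase genes, Hp, Saa3 and Lcn2 were high in estrus-1, where Mt2 was at its highest, and are given because of these values. Not all genes of the list were. Orm1 and Orm2 were at most at 171.3 and 2.16 FPKM at estrus, against up to 280 and 3.33 FPKM at diestrus. Hp, the hemoglobin-binding haptoglobin, was at 932.5 FPKM in estrus-1 and at 145.2 to 416.1 in the other 19 libraries. The serum amyloid gene Saa3 was at 11.7 FPKM in estrus-1 and at 0 to 0.412 elsewhere, so that it did not reach the level needed for a test, and neither did Saa1 and Saa2. Lcn2, an iron-scavenging lipocalin, was at 22.3 FPKM in estrus-1, the highest of its stage, and had its highest mean at metestrus (17.9 ± 7.63 FPKM, against 10.4 ± 2.49 at diestrus, SD, n = 5, limma adjusted p = 0.321).

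Of 9 protein-coding neighbours of the locus 7 were tested, and 1 differed among the stages. The nearest tested genes on either side, Nup93 (34.2 kb away, a subunit of the nuclear pore) and Bbs2 (73.7 kb away, a protein of the primary cilium), had log2 differences of 0.16 and -0.27 from metestrus to diestrus (limma adjusted p = 0.772 and 0.461). Herpud1, a gene of protein disposal at the endoplasmic reticulum, lies 206.1 kb from the pair. It was at 33.3, 26.4, 24.0, 30.2 and 28.1 FPKM at metestrus and at 15.1, 12.6, 21.5, 13.8 and 16.1 FPKM at diestrus. It fell by 0.82 on the log2 scale between them (standard error 0.14, limma adjusted p = 0.00694), with no overlap, and this call held in all 20 fits with a library removed. Its adjusted p among the stages was 0.0253 by the F test of limma, a call that was lost in 6 of these fits. Cpne2, farther on, had an F test adjusted p of 0.658.

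Likeness was ranked among the genes tested, leaving out predicted and clone names and identifiers without a symbol. Of these, the gene with the pattern most like Mt1, after Mt2, was Mafk, and the same held for Mt2 after Mt1. Likeness was Pearson's r of log2(FPKM + 1) over the 20 libraries, with r = 0.936 to Mt1 and 0.933 to Mt2. Mafk encodes a small Maf protein, which pairs with larger factors such as Nrf2 at antioxidant response elements. It was at 8.06, 8.27, 8.38, 9.47 and 9.81 FPKM at metestrus and at 6.29, 6.25, 6.67, 5.72 and 6.07 FPKM at diestrus. At proestrus it was at 7.62, 6.57, 6.53, 6.18 and 7.08 FPKM, and at estrus at 9.73, 7.50, 6.72, 6.32 and 6.84. As with Mt1, only estrus-1 of the other stages lay within the metestrus range, but the means differed far less, 8.80 FPKM at metestrus against 6.20 at diestrus. After subtraction of the stage means r was 0.828 to Mt1 and 0.816 to Mt2, and 0.654 and 0.517 without estrus-1.
The next genes most like Mt1 were Slc35e4, a putative sugar nucleotide transporter, and Plekhf1, an endosomal protein (r = 0.904 and 0.902), followed by Tinagl1, Map3k6, Cebpd, Tob2, Ctgf, Sh3d21 and Fam107a (r = 0.893 to 0.859). Of the 10 most like Mt2, those described here besides Mafk were Myrip, Tinagl1, Map3k6, Plekhf1, Enc1, Doc2b and Ramp2 (r = 0.859 to 0.834). Both lists of 10 held Mafk, Plekhf1, Tinagl1 and Map3k6. Slc35e4 was at 7.37 to 11.8 FPKM at metestrus, 4.44 in estrus-1 and 1.96 to 3.73 elsewhere. Of the 14 genes described from the lists, 12 had estrus-1 as their highest estrus library, and without estrus-1 only 4 of the 10 genes for Mt1 and 1 of the 10 for Mt2 stayed among the first 10. Within stages Mafk and Smap1 were most like Mt1 (r = 0.828 and 0.82) and Spsb1 and Pcbd1 most like Mt2 (r = 0.867 and 0.857), but 2 of 10 and 0 of 10 genes stayed on these lists without estrus-1. The r of Spsb1 was then 0.112. These correlations are a description, since all values of a library share its scaling and its mouse.

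**Figure D4:**
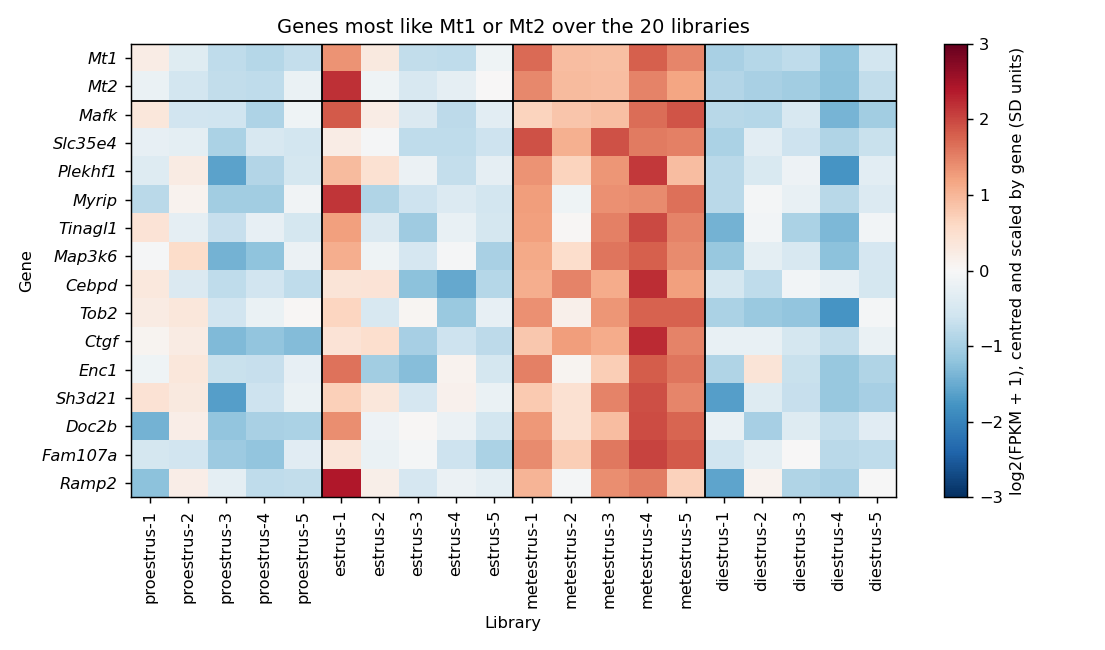
Mt1, Mt2 (above the line) and 14 genes among the most like either of them, over 20 libraries in columns. Colour gives log2(FPKM + 1), centred and scaled by gene, from blue (low) to red (high) in SD units. The metestrus columns are red or near white in all rows, and estrus-1 is dark red for Mt2, Myrip and Ramp2 and pale for Slc35e4, Cebpd and Ctgf.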

How the data were processed

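The authors deposited 1 table of FPKM for 35841 genes and 20 libraries. By their methods, total RNA was enriched for polyadenylated RNA, reads were trimmed with Skewer and aligned to GRCm38 with STAR (2.5.3a), and HTSeq is named for counting. The submitters' processing notes also name StringTie (1.3.1c), FastQC (0.11.5) and the build hg38 beside GRCm38. The annotation release is not given in the sources used here. Sums of FPKM were 373659 to 452647 per library, and no 2 libraries were identical. Of low values 30.4% came within 0.1 of a whole number of fragments (20% by chance), so that counts per gene were not recovered. No count test was run. The paper lists the reads and the mapped share of each library, and these were not used here. FPKM are relative, so that a few abundant genes can lower the values of the rest.

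Libraries were grouped by their titles, and columns were matched to titles. FPKM were taken to log2(FPKM + 1), and 13987 genes that reached 1 FPKM in 5 or more libraries were fitted in limma 3.58.1 (R 4.3.3), with a mean per stage, a trend and empirical Bayes moderation. The F test and 6 pairs of stages, later minus earlier, were each adjusted by Benjamini-Hochberg at 0.05. The fit was checked on simulated data. Mt1 and Mt2 were among the genes fitted, but they were left out of the list counts and no test result is given for them. Named genes were the listed genes past a test, the 3 with the smallest F test p per list, and the 10 with the highest r to each of Mt1 and Mt2, leaving out predicted and clone names. Not all of them are reported here, and others named were chosen after their values were seen. The genes and lists were chosen with earlier results of these data known. Alternatives were another pseudocount, 2 filters, 3 scalings, array weights, a replicate block, the libraries of 2 stages alone and leaving out each library, and, after the data were seen, likeness and member values without estrus-1. Coordinates are those of GENCODE M21 and RefSeq on GRCm38, 1-based.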

Additional observations from a re-analysis of the deposited data

Results flagged for a closer look

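A library far from the other 4 of its stage was found in 3 of 12 groups for Mt1, Mt2 and their ratio, which had been picked partly for such libraries, so that this count is a description. For the 13 listed genes past a test it was found in 5 of 52 groups, and chance alone gives about 5 in 100. Mt2 was at 152.9 FPKM in estrus-1, and the nearest estrus library was at 26.6. The log2 ratio of Mt2 to Mt1 was 0.13 in proestrus-5, with the nearest proestrus library at -0.45, and 0.0216 in metestrus-5, with the nearest at 0.13. Per1 was at 14.8 FPKM in estrus-1, against 8.70 in the nearest estrus library. In proestrus-1, Sgk1 was at 26.1 FPKM (nearest 14.6) and Cebpd at 7.68 (nearest 5.48), and Mt1 was at 34.5, the highest of its stage. Errfi1 was at 50.8 FPKM in estrus-2 (nearest 21.0). Il6ra was at 8.29 FPKM in diestrus-3 (nearest 4.61).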

How the results depend on the processing

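The differences of Mt1 and Mt2 between stages kept their sign with a pseudocount of 0.1, 3 other scalings and each library left out. Those with estrus depended on estrus-1, without which the log2 difference of Mt2 went from 0.86 to 0.31 against proestrus, from 1.07 to 1.61 for metestrus and from -1.41 to -0.86 for diestrus, beside a spread without it of 0.28, 0.28 and 0.23 (SD). The number of listed genes that passed was 8 for the F test, and 4 with no filter on low values, 15 with array weights and 3 to 10 with 1 library left out (3 without metestrus-4, 4 without metestrus-1 or metestrus-5). From proestrus to metestrus it was 9, and 5 with no filter and 3 to 11 with 1 library left out. From estrus to metestrus it was 5, and 3 with no filter, 8 with array weights, 2 on the libraries of both stages alone and 2 to 6 with 1 library left out. From metestrus to diestrus it was 10, and 25 with array weights, of which 6 were in the zinc importer, copper and antioxidant lists, and 5 to 12 with 1 library left out. Over all genes, array weights raised the calls of this pair from 173 to 1035. No call of a listed gene changed direction. The replicate numbers mark different mice, and 1 of 20 libraries was closest to its own number. With the replicate block, 5 listed genes passed the F test and 5 the comparison of proestrus with metestrus. With each library scaled to an equal total the median of all genes shifted to 0.11 from proestrus to estrus. Counts per gene were not recovered from the FPKM, so counting error was not estimated.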
